A study of Homo sapiens with 15 samples.

Results

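Gene expression after decitabine alone was compared directly with expression after PXD101 alone in CP70 cells. The comparison used the 3 arrays titled for CP70 with decitabine and the 3 titled for CP70 with PXD101, which are 6 of the 15 arrays in the series, and covered all 19775 genes with a probe set of a single gene symbol. CP70 (A2780/cp70) is a cisplatin-resistant derivative of the human ovarian cancer cell line A2780. Decitabine was given at 0.1 µM for 48 h and renewed after 24 h, PXD101 was given at 0.1 µM for 48 h, and cells of either arm were collected 96 h after drug removal. No cells of either arm were therefore in drug at harvest, and every value describes a state after that interval. The arms differ in the drug given and in the renewal after 24 h, which is stated for decitabine only. They share the line, the dose in µM, the hours of exposure and the harvest time. The other arrays served as points of reference: 3 of untreated A2780, 3 of untreated CP70, and 3 of CP70 given decitabine at 0.1 µM over 48 h and PXD101 at 0.1 µM, added for 24 h once decitabine had been on for 24 h, and also collected at 96 h. The design text states biological triplicates, and 3 arrays a group limit the precision of every value below.

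Decitabine is a cytidine analog that is built into replicating DNA and traps DNA methyltransferases there, so that cytosine methylation is lost as cells divide. It is known for switching on genes whose promoters were silenced by methylation, among them germline genes of the X chromosome, and for raising interferon-stimulated genes. PXD101, also called belinostat, is a hydroxamate inhibitor of histone deacetylases, enzymes that remove acetyl groups from histones and other proteins. Its effect on histone acetylation is reversible.

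Promoters of 6 genes that were higher after decitabine are shown because the genes stand for the 2 groups described first, silenced or germline genes and interferon-stimulated genes. Each is the 250 bases before the gene's RefSeq start in GRCh38.p14, 5′ to 3′ on the gene's strand. In ARMCX2 (chrX:101659851-101660100, minus strand), DAZL (chr3:16605424-16605673, minus strand) and MAGEA6 (chrX:152769690-152769939, minus strand) the capitals mark each CG, the dinucleotide that DNA methyltransferases act on.
ARMCX2: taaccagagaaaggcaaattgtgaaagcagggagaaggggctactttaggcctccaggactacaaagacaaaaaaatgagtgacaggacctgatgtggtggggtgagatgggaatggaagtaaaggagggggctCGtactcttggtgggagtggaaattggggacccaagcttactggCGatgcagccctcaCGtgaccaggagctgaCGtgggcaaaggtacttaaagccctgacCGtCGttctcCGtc
DAZL: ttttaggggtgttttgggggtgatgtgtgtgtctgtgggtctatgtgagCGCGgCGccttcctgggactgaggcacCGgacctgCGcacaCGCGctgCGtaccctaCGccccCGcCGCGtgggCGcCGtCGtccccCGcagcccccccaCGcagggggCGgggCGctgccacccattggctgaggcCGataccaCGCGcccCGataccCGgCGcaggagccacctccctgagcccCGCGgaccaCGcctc
MAGEA6: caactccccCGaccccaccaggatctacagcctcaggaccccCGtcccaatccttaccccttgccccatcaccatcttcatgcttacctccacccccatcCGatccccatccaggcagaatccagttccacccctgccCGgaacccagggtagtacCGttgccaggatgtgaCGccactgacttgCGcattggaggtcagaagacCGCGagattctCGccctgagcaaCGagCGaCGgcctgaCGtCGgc
These stretches hold 7, 28 and 15 CG. In IFI27 (chr14:94110486-94110735, plus strand), ISG15 (chr1:1013247-1013496, plus strand) and IFIT1 (chr10:89392373-89392622, plus strand) the capitals mark gaaa, any 2 bases and gaaa on either strand, the core of the interferon-stimulated response element; each stretch holds 2 matches.
IFI27: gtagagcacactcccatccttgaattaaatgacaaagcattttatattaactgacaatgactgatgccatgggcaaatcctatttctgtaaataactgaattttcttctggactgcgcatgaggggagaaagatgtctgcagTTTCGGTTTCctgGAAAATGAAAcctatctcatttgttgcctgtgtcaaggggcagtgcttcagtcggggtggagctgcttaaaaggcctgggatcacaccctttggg
ISG15: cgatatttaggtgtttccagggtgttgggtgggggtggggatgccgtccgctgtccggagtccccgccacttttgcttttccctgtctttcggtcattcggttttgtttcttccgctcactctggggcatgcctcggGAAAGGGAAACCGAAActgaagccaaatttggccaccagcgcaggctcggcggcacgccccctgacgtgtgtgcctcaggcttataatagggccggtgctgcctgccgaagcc
IFIT1: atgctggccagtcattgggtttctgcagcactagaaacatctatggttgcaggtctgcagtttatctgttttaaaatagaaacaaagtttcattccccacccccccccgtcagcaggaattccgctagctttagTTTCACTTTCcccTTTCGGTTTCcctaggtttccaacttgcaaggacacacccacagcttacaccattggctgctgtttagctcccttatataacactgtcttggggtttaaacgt
Methylation and factor binding were not measured on these arrays, so a marked base is a description of the sequence.

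The arrays were first set beside each other. Across genes, the decitabine arrays correlated with each other at 0.993 to 0.997, the PXD101 arrays at 0.994 to 0.997, and arrays of one arm with arrays of the other at 0.981 to 0.988. The decitabine arrays correlated with the combined arrays at 0.993 to 0.998, close to the range seen within an arm. Untreated CP70 replicate 2 correlated with the PXD101 arrays at 0.995 to 0.997, whereas untreated replicates 1 and 3 did so at 0.973 to 0.984, so the untreated line is given below by array. Decitabine replicate 3 had the largest gap between the 3′ and 5′ actin probe sets of the arms compared, 0.787 log2 against 0.443 and 0.342 in the other decitabine arrays and 0.384 to 0.509 with PXD101. As epithelial markers, KRT18 was at 10.23, 10.59 and 10.74 log2 after decitabine and 8.99, 9.09 and 8.92 after PXD101, while CDH1 and MUC16 lay in both arms under 4.34 log2, the lower quartile taken over all genes. Leukocyte PTPRC, MS4A1, CD14 and LYZ and the fibroblast and endothelial FAP, CDH5 and KDR were also below it in both. Leukocyte CD3D, CD3E and TYROBP lay above it, with means of 5.15, 4.75 and 6.92 after decitabine and 4.90, 4.76 and 5.58 after PXD101. Other stromal markers were not low: ACTA2 was at 11.74 and 11.27 in the means after decitabine and PXD101, THY1 at 8.74 and 8.47, and PDGFRB at 6.38 and 6.56. Of 19 fibroblast and endothelial markers, ACTA2, TAGLN and ENG were called higher after decitabine (15.8%, against 7.02% of all genes). COL3A1 was called higher after PXD101 (5.26%, near the 6.2% of all genes). On the decitabine side 1 of the list was called without decitabine replicate 2 or 3 or PXD101 replicate 2 or 3. With the mean of all its probe sets, ACTA2 differed by 0.05 log2 and was not called. The samples are of cell lines, and ACTA2 was also high in A2780 (12.97, mean). Why these transcripts were present was not tested.

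Between the arms, 2615 of the 19775 genes (13.2%) differed at a Benjamini-Hochberg adjusted p under 0.05 in limma, 1388 higher after decitabine (7.02%) and 1227 higher after PXD101 (6.2%). The sizes were unequal. At least 2-fold differences were found for 377 genes after decitabine and 41 after PXD101, and at least 4-fold differences for 108 genes, all higher after decitabine. The median difference of the called genes was 0.66 log2 on the decitabine side and 0.51 on the PXD101 side, and the largest were 6.63 (MAGEA6) and 1.93 (MPZL2). The numbers of calls depended on the scale: decitabine held 53.1% of calls on the deposited values, 47.3% after repeated quantile normalization and 36.2% after centring each array on its median. Leaving out decitabine replicate 2 left 905 and 614 calls, PXD101 replicate 2 left 1130 and 757, PXD101 replicate 3 left 932 and 744, and leaving out decitabine replicate 3 gave 1572 and 1723. By rank product, which the design text names, 452 and 275 genes passed, and limma called 444 and 265 of these.

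**Figure D1:**
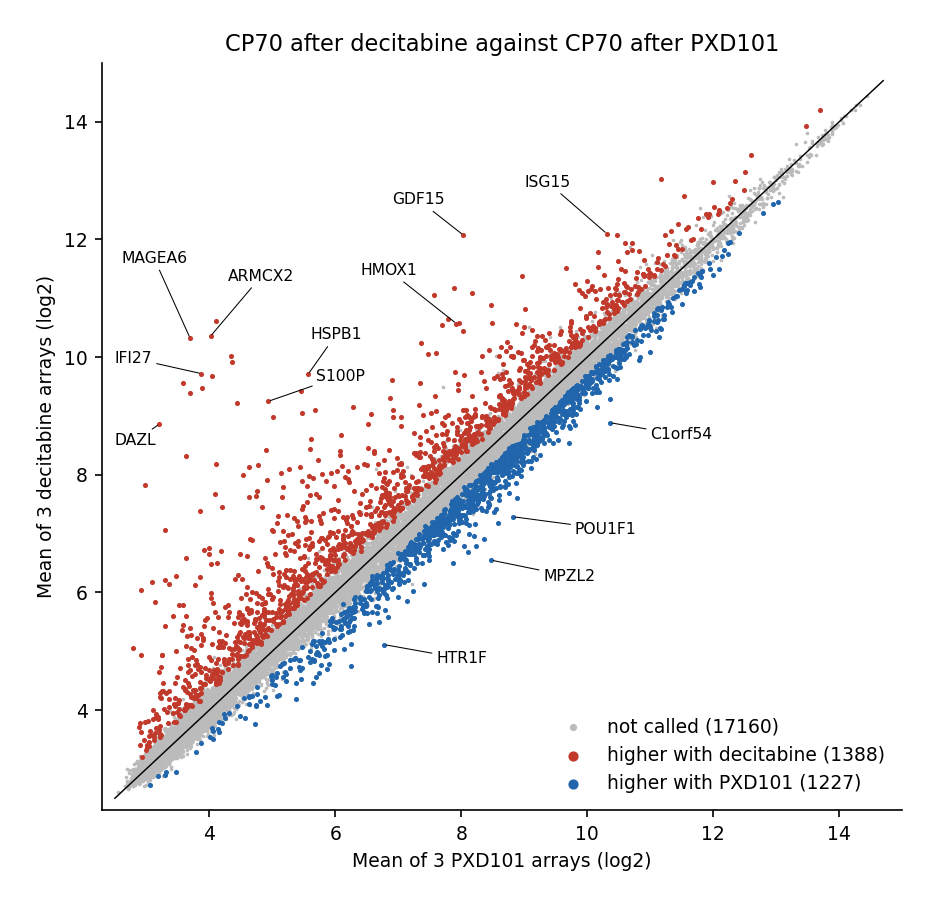
Mean log2 value of each of the 19775 genes over the 3 PXD101 arrays (x axis) and the 3 decitabine arrays (y axis); red and blue points are the 1388 genes called higher after decitabine and the 1227 called higher after PXD101, grey points were not called and the line marks equal levels. Genes far from the line lie on the decitabine side, up to 6.63 log2 for MAGEA6, while the farthest on the PXD101 side is MPZL2 at 1.93.

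Genes of the germline stood at the head of the decitabine side. Of 29 measured cancer-testis antigens, proteins normally made in testis and often of the X chromosome, 21 were higher after decitabine, 19 of them at least 2-fold, with a list median difference of 1.51 log2 against 0.01 over all genes. MAGEA6 was at 10.34, 10.42 and 10.21 log2 in the decitabine arrays and at 3.63, 4.03 and 3.43 in the PXD101 arrays. The difference was 6.63 ± 0.15 log2 (SE), with an adjusted p of 4.28e-10. The PXD101 values lay beside those of untreated CP70 (3.71, 3.72 and 3.63) and A2780 (4.07, mean), and the arms were far apart. MAGEA12, MAGEA4, MAGEA1 and MAGEB2, of the same MAGE family, differed by 5.98, 5.58, 4.79 and 4.69 log2, SSX1 by 5.64, CTAG2 by 4.08 and MAGEC2 by 2.47. Probe sets of MAGEA and SSX genes can also bind near-identical family members, so the family is surer than the single symbol; the 2 SSX1 probe sets differed by 2.75 and 5.64. PRAME, which dampens retinoic acid receptor signalling, started from a higher level, with 8.64, 8.72 and 8.49 after PXD101 and 9.67, 9.51 and 9.69 after decitabine (1.01 ± 0.10, adjusted p = 6.86e-05). The mean after decitabine lay above all 3 untreated CP70 arrays for 20 of the 21 genes, and the mean after PXD101 lay within the untreated range for 12, above it for 5 and below it for 4.

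Germ cell genes outside those families made up a second group. Of 51 measured, 21 were higher after decitabine and 1 was higher after PXD101, while 22 lay below the lower quartile in both arms. DAZL, an RNA-binding protein of early germ cells, was at 8.91, 8.76 and 8.91 after decitabine and at 3.08, 3.14 and 3.39 after PXD101. Its difference was 5.66 ± 0.12 (adjusted p = 3.52e-10), and its levels in untreated CP70 (3.19, 3.23 and 3.02) and A2780 (3.10) were those of the PXD101 arm. GCNA, a germ cell protein that helps resolve DNA-protein crosslinks, differed by 6.52 ± 0.13, with 10.62, 10.86 and 10.38 against 3.97, 4.23 and 4.09. Members of the pathway of piwi-interacting RNAs, which silences transposons in germ cells, were on the same side: GTSF1 by 5.56, MAEL by 4.85, PIWIL2 by 1.19, TDRD9 by 1.07 and DDX4 by 0.74. Meiotic chromosome genes followed with HORMAD1 at 3.12 and SYCP3 at 0.57, and the CTCF paralog CTCFL differed by 3.53. TKTL1, a transketolase-like protein counted on this list, differed by 5.70 ± 0.13. The pluripotency-linked DPPA2 and DPPA4 differed by 1.40 and 1.44, and both were higher still in the combined arm, at 6.76, 6.98 and 6.56 for DPPA2 against 5.89, 5.95 and 5.88 after decitabine alone. TEX15, which directs methylation to transposons in germ cells, was the member higher after PXD101 (9.48, 9.37 and 9.33 against 9.03, 8.73 and 8.72), and in untreated CP70 it spanned 7.54 to 9.43. With only genes above the median level kept, 12 cancer-testis antigens and 5 germ cell genes were called.

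Several other genes with large differences were low in untreated CP70 and high in A2780. ARMCX2, an X-linked armadillo repeat protein, was at 10.43, 10.38 and 10.26 after decitabine and 3.68, 4.07 and 4.31 after PXD101 (6.34 ± 0.14, adjusted p = 3.52e-10). The decitabine arrays lay at the A2780 mean of 10.38, and the PXD101 arrays beside untreated CP70 (3.80, 3.98 and 3.15). GPX1, a glutathione peroxidase that removes hydrogen peroxide, was at 10.03, 10.10 and 9.92 against 4.60, 4.57 and 3.87, a difference of 5.67 ± 0.16, with A2780 at 10.84. HSPB1, the small heat shock protein HSP27, which was singled out after its values were seen, showed the same order, at 9.62, 9.76 and 9.75 against 5.46, 5.47 and 5.78, with A2780 at 11.94. MEST, a paternally expressed imprinted gene, was at 6.48, 6.88 and 6.78 against 4.12, 4.14 and 4.28 (2.53 ± 0.17), far under its A2780 level of 13.29. Of the 18 ARMCX and BEX family genes, which lie mostly on the X chromosome, 9 were higher after decitabine, among them BEX1 by 3.39, ARMCX3 by 2.87 and BEX5 by 2.28, and ARMCX4 and TCEAL1 were higher after PXD101, with log2 differences of -0.57 and -0.42. The imprinted PEG3, PHLDA2 and GRB10 were higher after decitabine by 1.68, 1.66 and 1.14, and PEG10, NDN and PLAGL1 were higher after PXD101, at -0.89, -0.59 and -0.38. Of 31 imprinted genes, 6 were called on the first side (19.4%, against 7.02% of all genes) and 3 on the second (9.68%, against 6.2%). The first count was 4 without PXD101 replicate 3. The second was 1 without decitabine replicate 2 or PXD101 replicate 2. Among 6 measured genes remembered from published work as methylation targets, ARMCX2, MDK, MEST, COL1A1 and PSMB9 were higher after decitabine; these samples were part of the choice of that list, so its count is no independent evidence. MDK, a heparin-binding growth factor, was at 8.90, 8.93 and 8.68 against 7.09, 7.08 and 6.95.

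**Figure D2:**
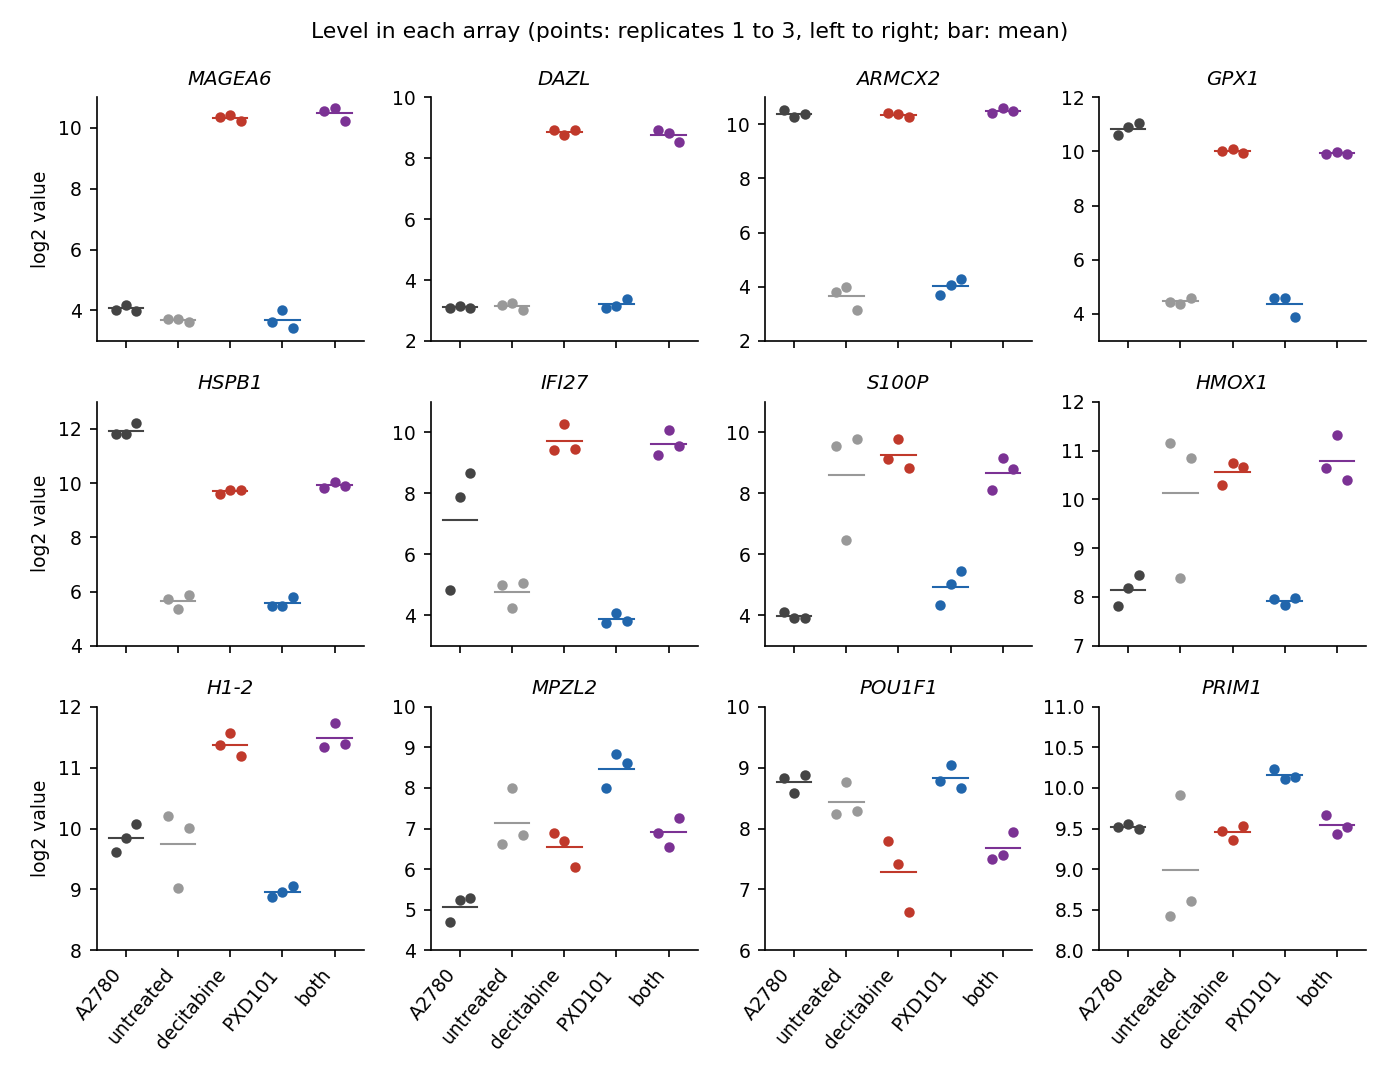
Log2 value of 12 genes (y axis, each panel with its own range) in the 15 arrays (x axis: A2780, CP70 left untreated, and CP70 given decitabine, PXD101 or the pair of drugs); points are replicates and bars are group means. For MAGEA6, DAZL, ARMCX2, GPX1 and HSPB1 the 3 PXD101 arrays lie with the 3 untreated CP70 arrays, while for S100P, HMOX1, MPZL2 and PRIM1 untreated replicate 2 lies nearer the PXD101 arrays than replicates 1 and 3 do.

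Chromosome X held 81 of the genes higher after decitabine (5.84%), 40 of the 377 with at least 2-fold differences (10.6%) and 34 of those higher after PXD101 (2.77%), against 3.52% of all genes tested. The mean after PXD101 was below the lower quartile for 231 genes higher after decitabine (16.6%), and the mean after decitabine was so for 36 genes higher after PXD101 (2.93%). Over all genes these shares were 25.5% and 24.3%, so both called sets held fewer such genes than the whole table. In the RefSeq promoter window of 300 bases, from 250 before the start to 50 after it, at least 10 CG were found for 75.8% of genes higher after decitabine, 86.5% of those higher after PXD101 and 73.5% of all 15382 tested genes with a promoter entry. The median was 19 CG for the 286 promoters of genes with at least 2-fold higher levels after decitabine and 22 for all. Within the 2 germline lists it was 13 for called cancer-testis antigens and 11 for all measured ones, and 19 and 21 for the germ cell genes. The median of the called members thus lay above that of all measured members in the first list and below it in the second.

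Interferon-stimulated genes were the second large group. Of 56 measured, 43 were higher after decitabine, 23 of them at least 2-fold, with a median difference of 0.82 log2. IFI27, a mitochondrial membrane protein and a sensitive reporter of interferon, was at 9.42, 10.28 and 9.45 after decitabine and 3.75, 4.06 and 3.81 after PXD101. Its difference was 5.84 ± 0.24 (adjusted p = 5.68e-08), and untreated CP70 lay slightly above the PXD101 arm at 4.98, 4.25 and 5.07. ISG15, a ubiquitin-like modifier, started high and was at 11.92, 12.37 and 12.01 against 10.40, 10.25 and 10.28 (1.79 ± 0.12). IFIT1, which binds viral RNA, had a modest difference of 0.55 ± 0.10 from an already high level of 11.88 to 11.90 after PXD101. The antiviral effectors XAF1, OAS1, RSAD2, MX1, IFI44 and BST2 differed by 2.98, 2.62, 2.38, 2.30, 2.09 and 1.80. Other probe sets of XAF1 differed by 1.28 and 0.23. The mean after decitabine lay above the 3 untreated arrays for 42 of the 43 genes, and the mean after PXD101 lay within their range for 19, below it for 15 and above it for 9. In each decitabine array the list median (8.19, 8.52 and 8.10) exceeded that of each PXD101 array (6.63, 7.09 and 6.82), and replicate 2 was the highest in both arms.

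Upstream of these genes, 9 of 37 RNA sensors and interferon signalling factors were higher after decitabine (6 without PXD101 replicate 3) and 4 after PXD101 (1 without decitabine replicate 2, and 2 without PXD101 replicate 2 or 3). RIGI and IFIH1, the cytosolic sensors of double-stranded RNA, were at 8.66, 9.29 and 8.62 against 6.15, 6.81 and 6.59, and at 7.89, 8.46 and 7.68 against 5.26, 5.98 and 6.11. Of the 3 IFIH1 probe sets, the one with the highest level was called, at 2.23 ± 0.25, and the others differed by 0.57 and 0.17. The transcription factors IRF9, IRF7 and IRF1 differed by 1.59, 1.35 and 0.86, and STING1, which relays signals of cytosolic DNA, by 0.67. MAVS, the mitochondrial adaptor of both RNA sensors, was higher after PXD101 (8.94, 8.95 and 8.98 against 8.37, 8.33 and 8.66). The interferon genes themselves were low in both arms: IFNB1 was at 4.42, 4.12 and 3.91 against 3.90, 3.68 and 4.03, with a difference of 0.28 (95% interval -0.04 to 0.60), and IFNL1 differed by 0.33 (-0.02 to 0.67). Among 32 antigen presentation genes, 11 were higher after decitabine and 1 after PXD101. PSMB8, a subunit of the immunoproteasome, led with 6.35, 6.78 and 6.35 against 4.16, 3.93 and 4.30, whereas HLA-B, HLA-F and HLA-G differed by 0.77, 0.79 and 0.56 and had means after decitabine within the untreated range. The count for antigen presentation was 2 when the spread was taken from all 15 arrays and 6 without decitabine replicate 2 or without PXD101 replicate 1.

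Promoters of the interferon group were described by the same windows. The core, gaaa with any 2 bases and gaaa, searched on both strands, was present in the 300-base windows of 22 of 33 called interferon-stimulated genes with a promoter entry (66.7%) and of 29 of 43 measured ones. It was present in 2.95% of all promoters, 5.78% of those of genes higher after decitabine, 8.39% where the difference was at least 2-fold and 2.16% for genes higher after PXD101. CCGGAA, the core bound by ETS factors, was found in 22.0%, 24.3% and 23.1% of promoters of genes higher after decitabine, of genes higher after PXD101 and of all genes. The IFI27 window held 4 CG, and the median was 8 for called interferon-stimulated genes.

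Inflammatory genes and metallothioneins were also higher after decitabine. Of 36 cytokines and NF-kB targets, 20 were higher after decitabine, while 13 were without decitabine replicate 2 and 11 by rank product. CCL5, a chemokine for T cells, was at 7.49, 7.86 and 7.53 against 5.75, 5.71 and 5.75 (1.89 ± 0.14), and CXCL8, a chemokine for neutrophils, at 6.09, 6.99 and 6.37 against 3.65, 4.35 and 4.08 (2.46 ± 0.30). IL6, IL32 and CXCL2 differed by 1.13, 1.14 and 0.99, and NFKBIA, the NF-kB inhibitor induced by NF-kB, by 0.86. Of the 3 CXCL2 probe sets, 1 was called, and the lowest difference among them was 0.09. The metallothioneins, small cysteine-rich proteins that bind zinc and copper, had 6 of 9 members higher after decitabine: MT2A was at 11.62, 11.82 and 12.04 against 10.66, 10.70 and 10.79. For all 6 the mean of each arm lay above the range of untreated CP70, where MT2A was at 9.70, 10.29 and 9.76. Their order was the same in each case, with untreated CP70 lowest, PXD101 next and decitabine highest.

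**Figure D3:**
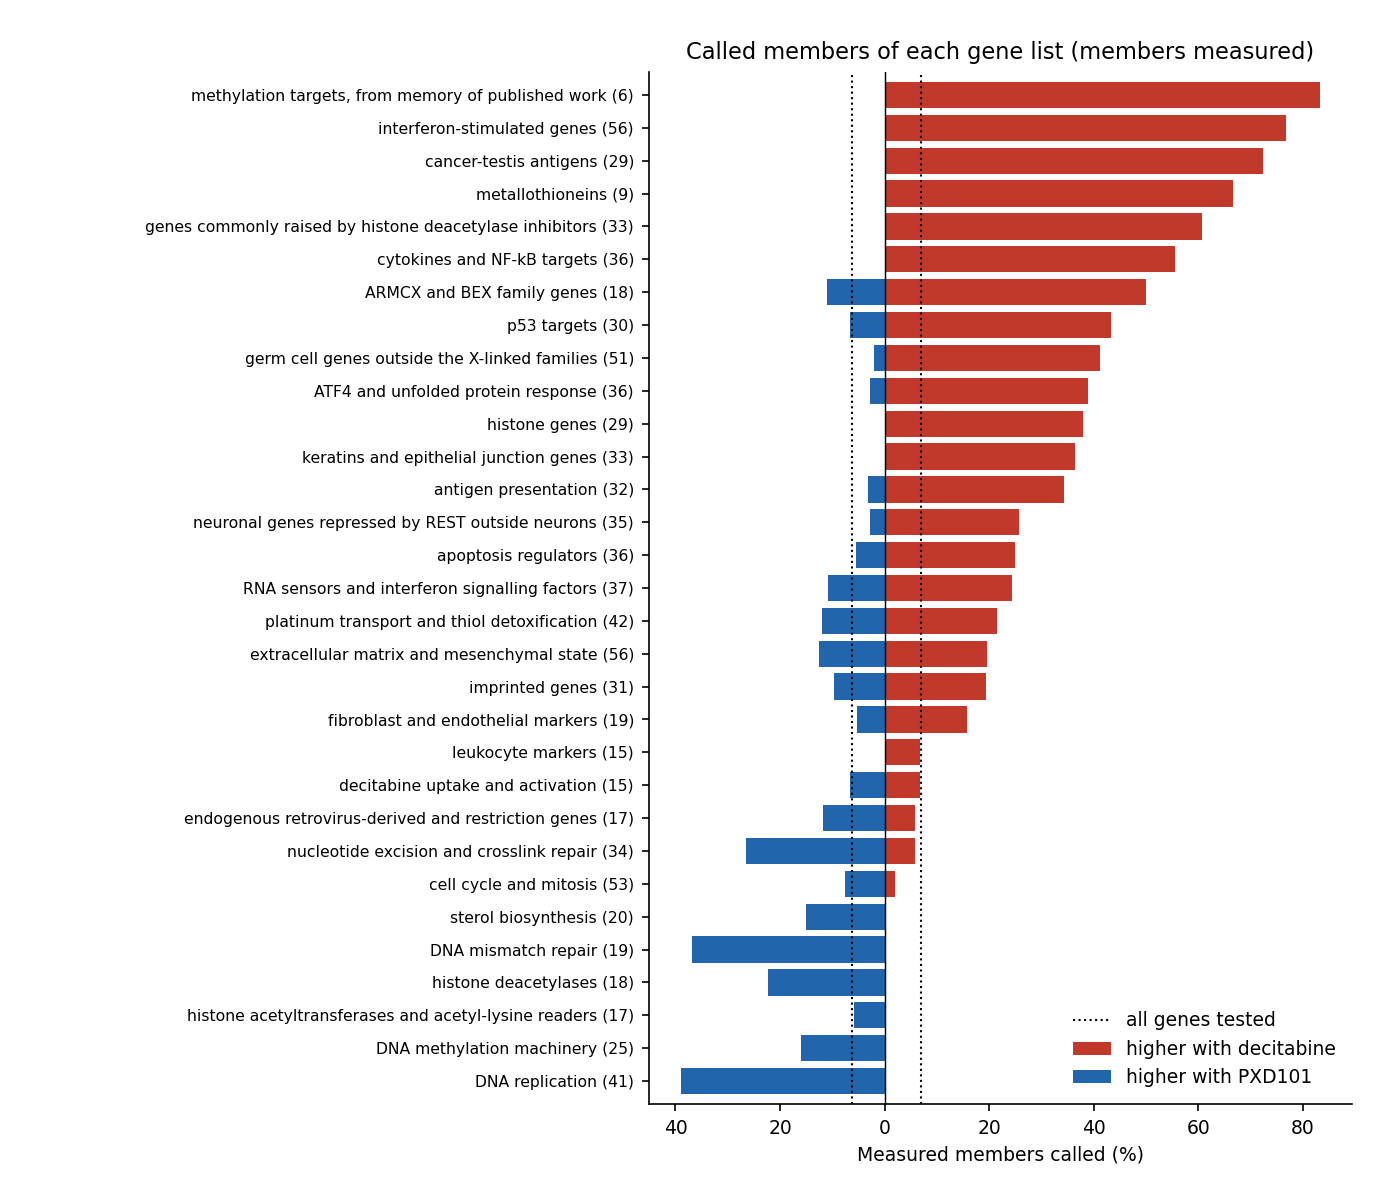
Share of the measured members of 31 gene lists (number measured in brackets) called higher after decitabine (red, to the right) or after PXD101 (blue, to the left), in percent; dotted lines mark the shares of all genes tested, 7.02% and 6.2%. Interferon-stimulated genes (76.8%) and cancer-testis antigens (72.4%) reach far to the right, and DNA replication (39.0%) and DNA mismatch repair (36.8%) to the left; lists share some genes and were chosen with earlier results known.

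Genes that histone deacetylase inhibitors commonly raise were not on the side of the inhibitor. Of 33 measured, 20 were higher after decitabine, with a list median of 0.68 log2; limma called no member higher after PXD101, no member passed an unadjusted p of 0.05 in that direction, and rank product found none. CDKN1A, the cyclin-dependent kinase inhibitor p21 and the usual example of such a gene, was at 10.51, 10.73 and 10.47 after decitabine and 8.65, 9.04 and 8.91 after PXD101 (1.70 ± 0.14, adjusted p = 1.52e-05). In untreated CP70 it was at 9.91, 9.10 and 9.95, so the PXD101 arrays were under the lowest of these. CRIP1, DHRS2 and CCN2 differed by 3.97, 2.88 and 3.28, and KLF4 by 3.50. The mean after PXD101 lay below the untreated range for 11 of the 20 genes, within it for 5 and above it for 4. Among 29 measured histone genes, 11 were higher after decitabine. H1-2, a linker histone, was at 11.37, 11.57 and 11.18 against 8.87, 8.95 and 9.05 (2.42 ± 0.13), with untreated CP70 at 10.21, 9.03 and 10.00. H4C8, H2BC21, H2AC6 and H2BC5 differed by 2.05, 1.98, 1.76 and 1.44.

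The methyltransferases and deacetylases that the drugs act on were also compared. DNMT1, the maintenance methyltransferase that decitabine traps, was at 10.02, 9.86 and 9.80 after decitabine and 9.88, 9.91 and 9.85 after PXD101, a difference of 0.01 with a 95% interval of -0.18 to 0.21. The arrays of its partner UHRF1 also overlapped (-0.06, interval -0.27 to 0.16), as did those of DNMT3B (-0.17, -0.51 to 0.16). For DNMT3A the probe set with the highest level gave a difference near 0 (-0.29 to 0.29), and another gave 1.09 ± 0.21 (adjusted p = 0.00775 among probe sets). Of 25 genes of DNA methylation, 4 were higher after PXD101, and 2 were when any array but decitabine replicate 3 was left out. TET1, which oxidises methylcytosine, was at 8.70, 9.10 and 8.86 after PXD101 and 7.92, 7.59 and 7.31 after decitabine (-1.28 ± 0.17), with untreated CP70 at 8.19, 8.66 and 8.36. HELLS, a remodelling enzyme needed for methylation, was at 9.24, 9.11 and 9.19 against 8.41, 8.19 and 8.20, but 1 of its 5 probe sets differed by 0.79 the other way. Of 18 deacetylases, 4 (22.2%) were higher after PXD101, and 2 were without decitabine replicate 2 or without any one PXD101 array. HDAC4 was the deacetylase with the largest called difference, at 6.57, 6.62 and 6.29 after PXD101 and 5.34, 5.95 and 5.66 after decitabine (-0.85 ± 0.15), and each untreated array was at 6.61. HDAC1 and HDAC3 differed by -0.34 and -0.32, and both lost the call in 5 of the 6 fits that left out 1 array, all but that without decitabine replicate 3. HDAC2 differed by -0.06 (-0.25 to 0.12). Of the genes of decitabine metabolism, the kinase DCK, which activates the drug, differed by -0.25 (-0.47 to -0.03) and the deaminase CDA, which inactivates it, by 0.45 (0.13 to 0.76), neither called; the transporter SLC29A1 was higher after PXD101, at -0.51, a call that was lost in 4 of the 6 fits that left out 1 array.

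Stress genes were higher after decitabine than after PXD101 but not higher than in all untreated CP70. Of 36 genes of the ATF4 pathway and the unfolded protein response, which answer amino acid shortage and misfolded protein, 14 were higher after decitabine and 1 (CRELD2) after PXD101, with a median of 0.87 log2. ATF5 was at 9.05, 9.08 and 9.01 against 7.50, 7.52 and 7.54 (1.53 ± 0.14). ATF3, a stress-induced repressor, was at 11.26, 11.19 and 10.74 after decitabine, and the PXD101 arrays lay far from each other at 4.30, 9.42 and 8.97 (3.50 ± 1.02, adjusted p = 0.0442). PXD101 replicate 1 was likewise the lowest array for NUPR1 (6.27, against 8.79 and 8.83), TRIB3 (6.97, against 9.26 and 9.22) and INHBE (3.34, against 6.61 and 6.47; chosen after its values were seen). For 13 of the 14 genes the mean after decitabine lay within the untreated range, and for all 14 the mean after PXD101 lay below it. Untreated CP70 was divided: the list median was 10.91 and 10.95 in replicates 1 and 3 and 9.76 in replicate 2, against 10.32, 10.28 and 10.10 after decitabine and 9.01, 9.76 and 9.43 after PXD101. The count on the decitabine side was 22 without PXD101 replicate 2, 9 without decitabine replicate 1, 7 without decitabine replicate 2 and 9 with the spread of all 15 arrays. CRELD2 lost its call in the fits of 6 or 15 arrays, with the replicate block and by rank product. It also lost the call when any compared array but decitabine replicate 3 was left out.

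The same spread of untreated arrays was seen in single genes of this kind. HMOX1, which breaks down haem under oxidative stress, was at 10.30, 10.75 and 10.66 after decitabine and 7.95, 7.84 and 7.97 after PXD101 (2.65 ± 0.20), with untreated CP70 at 11.16, 8.38 and 10.86. S100P, a calcium-binding protein, was at 9.14, 9.78 and 8.83 against 4.33, 5.04 and 5.44, with untreated CP70 at 9.56, 6.45 and 9.77. Of 30 p53 target genes, 13 were higher after decitabine (7 without decitabine replicate 2). POLH and CCNG1 were higher after PXD101 (6.67%, near the 6.2% of all genes). GDF15, a secreted stress cytokine on that list, was at 12.21, 12.26 and 11.75 against 6.59, 8.91 and 8.60 (4.04 ± 0.48), but its other probe sets differed by 0.77 and 0.47. TIGAR, PLK3 and TP53I3, which respond to p53, differed by 0.87, 1.16 and 0.63. Of the 3 PLK3 probe sets, 1 was called, and they ran from -0.05 to 1.16. Most of the 36 measured apoptosis regulators were not called. Higher after decitabine were 9 (25%, against 7.02% of all genes), and 2 (CASP2 and CASP6) were higher after PXD101 (5.56%, near the 6.2% of all genes). Without decitabine replicate 2 these counts were 4 and 1, and by rank product they were 4 and 0. Within the 9, the death receptor TNFRSF10B and its ligand TNFSF10 differed by 0.95 and 1.00. The BCL2 family killers BIK and BAK1, also of the 9, differed by 1.05 and 0.56. Over all 1388 genes higher after decitabine, the decitabine mean lay above the untreated range and the PXD101 mean within it for 448, above and below for 318, and within and below for 420. Both means lay above it for 143.

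DNA replication genes were on the PXD101 side. Of 41 measured, 16 were higher after PXD101, with a median difference of -0.31 log2, and all differences were under 2-fold. PRIM1, the catalytic subunit of primase, was at 10.23, 10.11 and 10.14 after PXD101 and 9.47, 9.36 and 9.53 after decitabine (-0.71 ± 0.09, adjusted p = 0.000597). The clamp loader subunit RFC5 was at 9.96, 9.95 and 9.97 against 9.39, 9.36 and 9.43, and the polymerase subunit POLE2, the helicase factor GINS4, and the helicase subunits MCM3 and MCM4 differed by -0.65, -0.54, -0.48 and -0.49. The arms did not overlap in these genes, but untreated CP70 was spread more widely, with PRIM1 at 8.43, 9.91 and 8.61. For the 16 called genes the mean after decitabine lay within the untreated range, and for 14 the mean after PXD101 lay above it. No gene of the list was called with the spread of all 15 arrays (24 passed an unadjusted p of 0.05 in the fit of 9 arrays, and rank product found 3), 25 were called without decitabine replicate 3 8 without decitabine replicate 2 or PXD101 replicate 1, 9 without decitabine replicate 1 and 10 without PXD101 replicate 3. Of 53 genes of cell cycle and mitosis, 4 were higher after PXD101 (7.55%, near the 6.2% of all genes) and 1 after decitabine. The 4 became 1 without decitabine replicate 1 or 2 or PXD101 replicate 1 or 3, 9 with a variance trend, and 10 with the mean of all probe sets, array weights or median centring. In that group MKI67 differed by -0.24 (-0.44 to -0.03) and CCNB1 by -0.35 (-0.61 to -0.10), neither called.

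DNA repair genes were partly the same genes. Of 19 mismatch repair genes, 7 were higher after PXD101, and 5 of them (RFC3, RFC4, RFC5, RPA1 and POLD3) are also on the replication list. PMS1 differed by -0.44 ± 0.10, but its 5 probe sets ran from -0.44 to 0.69, and EXO1 was the other member. Of 34 genes of nucleotide excision and crosslink repair, 9 were higher after PXD101 (26.5%, against 6.2% of all genes). Among them were BRIP1 (8.95, 8.96 and 8.96 against 8.18, 8.22 and 8.39), FANCG (-0.69 ± 0.11) and FANCL (-0.49 ± 0.09). The 2 higher after decitabine made up 5.88%, near the 7.02% of all genes. Of these 2, ERCC1, a partner of the nuclease that cuts DNA beside platinum adducts, differed by 0.60 ± 0.11, with a probe set at -0.39 among its 3. With the mean of all its probe sets, ERCC1 differed by 0.18 and was not called (limma adjusted p = 0.19). With the spread of all 15 arrays the counts on the PXD101 side were 1 and 3. Without decitabine replicate 2 they were 3 and 4, and 9 became 6, 5 and 5 without PXD101 replicates 1, 2 and 3.

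**Figure D4:**
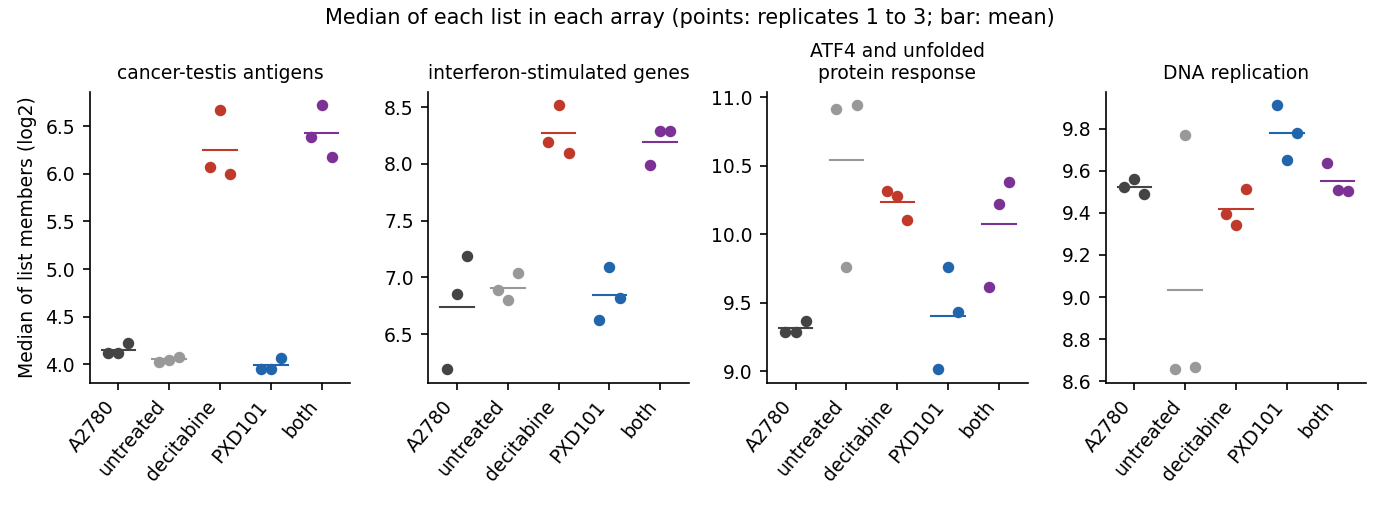
Median log2 value over the measured members of 4 gene lists (y axis, each panel with its own range) in each of the 15 arrays by group (x axis); points are replicates and bars are means of the 3 medians. The PXD101 arrays lie with untreated CP70 for cancer-testis antigens and interferon-stimulated genes, while for the ATF4 and DNA replication lists untreated replicate 2 lies apart from replicates 1 and 3, on the side of the PXD101 arrays.

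Among the genes with the largest differences on the PXD101 side, 2 patterns of untreated levels were seen. MPZL2, an epithelial adhesion protein, was at 7.996, 8.83 and 8.60 after PXD101 and 6.88, 6.70 and 6.06 after decitabine (-1.93 ± 0.26), with untreated CP70 at 6.61, 7.99 and 6.83. SOWAHA, MEOX1, B4GAT1, GPER1 and CSPG4 differed by -1.49, -1.44, -1.40, -1.27 and -1.26, and in each untreated replicate 2 lay nearer the PXD101 arrays than replicates 1 and 3 did. A second probe set of B4GAT1 differed by 0.05. In the other pattern all 3 untreated arrays lay above the decitabine arrays. HTR1F, a serotonin receptor, was at 6.59, 6.95 and 6.80 after PXD101, 6.34, 6.55 and 6.56 untreated and 5.33, 5.33 and 4.68 after decitabine (-1.67 ± 0.17). POU1F1, a pituitary transcription factor, was at 8.78, 9.04 and 8.66 against 7.80, 7.42 and 6.64, and C1orf54 at 10.16, 10.52 and 10.41 against 9.10, 8.79 and 8.77. CA14, a carbonic anhydrase, had the same pattern, at -1.42 ± 0.17. Of all 1227 genes on this side, the PXD101 mean lay above the untreated range and the decitabine mean within it for 571, above and below for 208, within and below for 207, and both lay within it for 188.

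Cell adhesion, matrix and cell identity genes differed in both directions. Of 33 keratin and epithelial junction genes, 12 were higher after decitabine: SFN, the 14-3-3 sigma protein of epithelia, by 2.47, KRT19 by 1.87 (a second probe set by -0.04), CLDN7 by 1.80, KRT18 by 1.52, KRT8 by 1.26 and EPCAM by 1.17. CDH1 was low in both arms and differed by 0.06 (-0.22 to 0.34). Of 56 matrix and mesenchymal genes, 11 were higher after decitabine and 7 after PXD101. MMP1, a collagenase, was at 12.94, 13.12 and 13.03 against 10.90, 11.42 and 11.19, and LOXL1, which crosslinks elastin, at 7.12, 7.19 and 7.55 against 5.54, 5.45 and 5.56. The collagen chains divided: COL1A1 was higher after decitabine (0.91 ± 0.13), and COL1A2 (-0.80 ± 0.19) and COL3A1 (-0.48 ± 0.10) after PXD101, as were the fibrillins FBN1 and FBN2 (-0.88 and -0.84). Of 35 neuronal genes that REST represses elsewhere, 9 were higher after decitabine (25.7%, against 7.02% of all genes) and 1, ELAVL4, after PXD101. The neurofilaments NEFM (2.94 ± 0.13) and NEFL (2.58 ± 0.14) led the decitabine side. The list median difference was 0.08 log2, and 12 of its genes lay below the lower quartile in both arms. TYROBP, a leukocyte adaptor, was the called member of 15 leukocyte markers (6.67%, near the 7.02% of all genes). It was at 6.99, 7.12 and 6.66 against 5.65, 5.86 and 5.22, while PTPRC was at 3.88 and 3.90 in the means of the arms.

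Genes of platinum transport and thiol detoxification were described because CP70 is resistant to cisplatin. Of 42 measured, 9 were higher after decitabine (21.4%, against 7.02% of all genes) and 5 after PXD101 (11.9%, against 6.2%). The latter were 2 without decitabine replicate 1 or 2 or PXD101 replicate 1, and 3 without PXD101 replicate 2 or 3. Besides GPX1 and HMOX1, the copper and platinum importer SLC31A1 was at 10.08, 10.17 and 9.70 against 9.04, 9.42 and 9.31 (0.73 ± 0.14), within the untreated span of 9.64 to 10.76. GPX3, GSTM3, MGST2 and TXNRD1, which handle peroxides and glutathione conjugates, differed by 0.78, 0.78, 0.70 and 0.67. The transferases GSTM1 and MGST1 were higher after PXD101, at -0.41 and -0.52. GSTP1 (0.02, interval -0.26 to 0.31), GPX4 (0.01, -0.17 to 0.18) and the exporter ATP7B (-0.19, -0.48 to 0.11) were not called. Of 20 sterol synthesis genes, FDPS, DHCR7 and LSS were higher after PXD101, at -0.57, -0.52 and -0.62. The 3 became 6 without decitabine replicate 3, 2 with the spread of all 15 arrays and 1 by rank product. They were 2 without decitabine replicate 1 or 2 or PXD101 replicate 1.

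The called genes were then set beside the contrast of both drugs with untreated CP70. Its group means share no array with those of decitabine against PXD101. However, all 9 arrays of treated CP70, among them the 6 compared here, entered the estimate of spread of both fits. Of the 1388 genes higher after decitabine, 602 were also higher with both drugs (43.4% of them and 49.3% of the 1221 genes of that contrast), and 15 were lower; 6.17% of all genes were higher with both drugs. Of the 1227 genes higher after PXD101, 203 were lower with both drugs (16.5%, and 24.3% of 834) and 15 were higher, against 4.22% of all genes. The overlap depended on the untreated arrays. Without untreated replicate 2, 611 and 202 of the genes higher after decitabine were higher and lower with both drugs, and 369 and 196 of those higher after PXD101, while the shares of all genes were 15.1% and 9.81%. Without untreated replicates 1 and 3, the numbers were 488 and 1, and 0 and 226, with 2.89% and 1.48% of all genes. Among named genes, MAGEA6 was at 10.54, 10.64 and 10.22 in the combined arm, IFI27 at 9.24, 10.09 and 9.56, CDKN1A at 10.33, 10.67 and 10.74 and HTR1F at 5.34, 5.49 and 5.70, in each case overlapping or next to the decitabine arrays and apart from the PXD101 arrays.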

How the data were processed

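RNA was extracted with RNeasy columns, amplified with the WT-Ovation Pico system and hybridised to Affymetrix arrays, per the labels' protocols. The authors deposited 1 table of log2 values for 54675 probe sets; R 2.10.1 and affy are named in the submitters' processing notes, while for background correction and normalization the method was not given in the sources used here. Their range showed that the deposited values are log2. Array medians were 5.00 to 5.06. Control probe sets (62) were left out. Gene names came from the platform annotation, updated to RefSeq symbols (41043 of 41097 single-symbol probe sets matched); 1801 probe sets with several symbols and 11777 with none were not used. Where a gene had several probe sets, the one brightest on average in the 15 arrays stood for it.

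limma 3.58.1 (R 4.3.3) was fitted with group means on the 9 arrays of treated CP70, which share 1 estimate of spread per gene; untreated arrays were left out of it because their replicates differ. Calls required an adjusted p (Benjamini-Hochberg, all genes) under 0.05. Differences are decitabine minus PXD101, with the standard error, and intervals are 95% intervals. Replicates are as the design text states them. Rank product used 9 array pairs, 100 permutations and an estimated false positive share under 5% (run in Python 3.11.15 with numpy 2.4.6 and pandas 2.3.3). Both tests were checked on simulated data.

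Named genes were the 15 largest called differences in each direction with arrays that do not overlap, up to 4 called members of each of 31 lists with the smallest p, and DNMT1, DNMT3A, DNMT3B, UHRF1, HDAC1 to HDAC3, DCK, CDA, ARMCX2, MEST and CDKN1A (some genes of the rule are not reported here); further list members are named as examples. The members and lists were chosen with earlier results of these data known. Of 979 listed genes, 94 had no value in the table used. Alternatives were fits of 6 or 15 arrays, a replicate block, genes above the median level, means of probe sets, every probe set, array weights, a variance trend, a 2-fold minimum, quantile normalization, median centring and leaving out each array. Promoters of 15382 genes came from RefSeq (GRCh38.p14).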

Additional observations from a re-analysis of the deposited data

How the results depend on the processing

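Over 15 alternatives with a value for single genes, 38 of the 127 called named genes lost the call at least once, 28 of them with the spread of all 15 arrays. Total calls were 1612 with all 15 arrays (644 higher after PXD101), 3956 with array weights (1967 higher after PXD101), 418 at 2-fold or more (377 and 41), 727 by rank product (452 and 275) and 4648 with every probe set as a feature (2146 and 2502); median centring gave 1942 genes higher after PXD101. Leaving out 1 array gave 1519 to 3295 calls, 905 to 1572 higher after decitabine and 614 to 1723 higher after PXD101. Cancer-testis antigens higher after decitabine numbered 12 and germ cell genes 5 among genes above the median level, and interferon-stimulated genes 23 at 2-fold or more and 24 by rank product; leaving out 1 array gave 21 to 22, 17 to 21 and 34 to 46. The direction turned for PMS1 (0.092), DNMT3A (0.42, adjusted p = 0.00702) and HDAC2 (0.017) with the mean of all probe sets, and for DNMT1 with quantile normalization (-0.014) and median centring (-0.055). Without single arrays, DNMT1 ran from -0.050 to 0.061, DNMT3A from -0.17 to 0.083 and UHRF1 from -0.11 to 0.015. The cause was not tested. Replicate numbers did not pair the arrays (deviations of same-numbered arrays correlated at -0.38, 0.04 and -0.24). With the replicate number as a block, 2148 genes were called, 1216 and 932. The number of arrays and signals near the low end of the scale limit what could be seen.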
